A study of Mus musculus with 6 samples.

Results

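The 10 genes described here are factors that hold lymphocytes in quiescence: *Klf2*, *Klf4*, *Foxo1*, *Foxo3*, *Foxp1*, *Btg1*, *Btg2*, *Tob1*, *Pik3ip1* and *Tsc22d3*. They were chosen by their known role, with their fold changes between AOA and vehicle in these libraries in view, and taken by symbol from a table of 11922 genes, and all 10 were found and passed the filter on low counts, as did 11759 genes in all. CD8+ T cells were purified with magnetic beads from spleens of 3 C57BL6/J mice and activated for 72 hours with anti-CD3/anti-CD28 Dynabeads. They were then expanded for 4 days, with recombinant human IL-2 at 100 units per ml throughout. Water as vehicle, or aminoxyacetic acid (AOA) at 0.25 mM, was present for all 7 days, so every culture in both groups had been activated. AOA blocks enzymes that use pyridoxal phosphate, the active form of vitamin B6. Cells of every mouse went into both groups, giving 3 vehicle and 3 AOA libraries of RNA sequencing numbered by mouse, and no culture of resting cells was analysed here.

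A resting lymphocyte is kept small and out of the cell cycle by an active program and not by a mere lack of signal. KLF and FOXO transcription factors maintain receptors for survival and homing, BTG and TOB proteins recruit deadenylases that shorten the poly(A) tails of messenger RNAs, PIK3IP1 restrains PI3K, and TSC22D3 carries part of the glucocorticoid response. T cell receptor signalling normally lowers many of these messenger RNAs, and PI3K and AKT signalling moves FOXO proteins out of the nucleus, so that messenger RNA reports only part of their activity.

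Start regions of 5 of the genes are printed to show how unlike they were, in *Klf4* and *Klf2*, family members with very different levels, in *Btg1* and *Btg2*, a paralogous pair that was lower with AOA, and in *Pik3ip1*, the gene with the largest deficit. The windows are from RefSeq on build GRCm38.p6 and run from 250 bases before a start site to 50 bases after it, 5′ to 3′ on the strand of the gene. Capitals mark the GC box GGGGCGGGG, the cyclic AMP element TGACGTCA, the FOXO motif GTAAACA or TATAAA, each on either strand. The windows are chr4:55532426-55532725 on the minus strand for *Klf4*, chr8:72318812-72319111 on the plus strand for *Klf2*, chr10:96616751-96617050 on the plus strand for *Btg1*, chr1:134079106-134079405 on the minus strand for *Btg2* and chr11:3330481-3330780 on the plus strand for *Pik3ip1*.
Klf4: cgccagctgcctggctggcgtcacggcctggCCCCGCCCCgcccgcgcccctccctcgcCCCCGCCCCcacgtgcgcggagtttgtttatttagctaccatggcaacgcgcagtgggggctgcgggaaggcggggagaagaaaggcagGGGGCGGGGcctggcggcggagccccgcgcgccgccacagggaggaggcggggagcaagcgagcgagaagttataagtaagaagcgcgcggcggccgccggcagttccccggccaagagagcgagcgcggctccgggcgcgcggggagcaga
Klf2: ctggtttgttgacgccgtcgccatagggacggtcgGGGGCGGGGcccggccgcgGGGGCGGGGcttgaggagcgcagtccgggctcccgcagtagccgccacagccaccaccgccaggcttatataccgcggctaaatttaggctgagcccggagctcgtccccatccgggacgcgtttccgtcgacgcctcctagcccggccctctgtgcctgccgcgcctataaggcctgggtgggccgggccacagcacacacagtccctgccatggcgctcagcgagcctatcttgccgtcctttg
Btg1: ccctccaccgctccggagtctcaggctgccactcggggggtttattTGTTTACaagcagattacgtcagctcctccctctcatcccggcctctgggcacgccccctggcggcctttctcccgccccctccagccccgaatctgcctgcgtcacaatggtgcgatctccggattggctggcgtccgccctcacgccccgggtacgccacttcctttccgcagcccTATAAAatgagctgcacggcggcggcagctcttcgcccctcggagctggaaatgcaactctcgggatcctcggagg
Btg2: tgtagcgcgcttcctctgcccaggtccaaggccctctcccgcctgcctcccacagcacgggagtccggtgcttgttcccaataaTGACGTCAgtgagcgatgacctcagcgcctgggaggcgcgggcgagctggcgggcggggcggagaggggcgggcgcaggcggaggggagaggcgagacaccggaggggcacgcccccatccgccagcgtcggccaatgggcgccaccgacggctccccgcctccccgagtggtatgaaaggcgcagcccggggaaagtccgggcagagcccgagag
Pik3ip1: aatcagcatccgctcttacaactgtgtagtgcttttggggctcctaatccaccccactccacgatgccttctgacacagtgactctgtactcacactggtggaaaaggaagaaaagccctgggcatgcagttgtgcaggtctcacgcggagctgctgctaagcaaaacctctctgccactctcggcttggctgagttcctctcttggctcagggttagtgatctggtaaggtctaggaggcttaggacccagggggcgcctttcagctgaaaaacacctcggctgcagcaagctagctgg

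The GC box was found in 6 of the 14 windows searched, belonging to 6 of the 10 genes (*Klf2*, *Klf4*, *Foxo1*, *Foxo3*, *Tob1* and *Tsc22d3*). It was found in 11.4% of all 32851 RefSeq windows of this length. The part of G and C content in this difference was not tested. *Klf4* held 3 copies and *Klf2* held 2. The windows printed for *Klf4*, *Klf2*, *Btg2* and *Btg1* had 74.3%, 69.3%, 72.0% and 64.7% G and C, and that of *Pik3ip1* had 54.7%, against a median of 52.7% over all windows. The FOXO motif, present in 3.65% of all windows, stood on the opposite strand of *Btg1* at position -204 from the start. The cyclic AMP element, present in 1.79%, stood at -166 of *Btg2*. TATAAA, present in 13.6%, stood at -26 of *Btg1* and -47 of *Tob1*. The KLF motif CCACACCC (3.56% of windows), the MEF2 motif (0.164%) and the palindromic glucocorticoid element (0.0578%) had no match in these windows, on either strand. No matches overlapped, and a match is a string of letters and not a measured binding site. Of the 10 genes, 14 windows were searched, since *Foxp1* and *Tsc22d3* have 3 each.

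Total counts per library were between 12881962 and 21997078. In a principal component analysis the first component held 80.1% of the variance and separated AOA from vehicle, and the second held 10.8% and set vehicle replicate 2 apart, at -44.2, with the other libraries between -7.97 and 21.9. The summed level of 7 T cell markers (*Cd8a*, *Cd8b1*, *Cd2*, *Cd5* and the CD3 chains) was 3438 to 4369.5 CPM (counts scaled to a common library total) with vehicle and 4369.3 to 5042 CPM with AOA, with 2 of 7 higher in the test (*Cd8a* and *Cd8b1*) and 2 lower (*Cd2* and *Cd5*). CD4 T cell markers summed to 158.4 to 210.5 CPM with vehicle and 33.0 to 54.3 CPM with AOA, with 3 of 4 lower in the test, and NK cell markers to 30.3 to 134.5 CPM and 8.02 to 19.7 CPM, with 2 of 2 tested lower. Myeloid markers summed to 41.5 to 55.0 CPM with vehicle and 1.41 to 3.96 CPM with AOA. With vehicle this was nearly all *Itgam*, and *Lyz2*, *Cd14* and *Mpeg1* were at most 1.16 CPM in any library. B cell markers summed to 12.6 to 16.6 CPM with vehicle and 22.6 to 30.7 CPM with AOA, mostly *Cd79b*, since *Cd79a* and *Ms4a1* were at most 2.28 CPM. The part of these differences in the values that follow was not tested. The libraries are of bulk RNA, in which fewer cells of a type and less RNA per cell cannot be told apart.

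With AOA, 1 of the 10 quiescence factors was higher than with vehicle past the threshold of an adjusted p of 0.05 in the edgeR quasi-likelihood fit over all genes, 6 were lower and 3 did not pass. Over all tested genes 53.0% passed this threshold, 26.2% higher and 26.8% lower. The vehicle and AOA libraries did not overlap for 7 of the factors, 1 above and 6 below, as for 62.1% of all tested genes (31.0% above and 31.1% below). Nothing is read from these shares, since this contrast was used in choosing the 10 genes, and their values below are a description without a test. Their median log2 fold change was -0.44, against -0.02 over all tested genes. Together the 10 genes took 2023, 1492.5 and 1991 CPM in vehicle replicates 1, 2 and 3, and 911.4, 954.2 and 1009 CPM in AOA replicates 1, 2 and 3.

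The KLF factors KLF2 and KLF4 are zinc finger proteins that slow lymphocyte proliferation, and KLF2 also maintains the homing receptor *S1pr1*. *Klf2* (build mm10, chromosome 8, 72319062 to 72321654) was at 112.9, 30.7 and 112.6 CPM in vehicle replicates 1, 2 and 3, and at 109.1, 105.4 and 130.5 CPM in AOA replicates 1, 2 and 3. Vehicle replicate 2 was far below all other libraries, which lay close together, and the groups overlapped. The log2 fold change was 0.43 (standard error 0.39), not past the threshold, and without vehicle replicate 2 it was 0.06 (standard error 0.14).

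*Klf4* (chromosome 4, 55527137 to 55532475) had 4, 6 and 2 reads in the vehicle libraries and 86, 102 and 84 reads in the AOA libraries. Those counts were 0.317, 0.38 and 0.109 CPM with vehicle and 3.95, 5.39 and 4.24 CPM with AOA. Every AOA library was above every vehicle library, and the level with AOA remained low. The log2 fold change was 4.08 (standard error 0.43), a 17.0-fold difference with counts of a few reads in its denominator, and it lay at percentile 99.8 of log2 fold changes over all tested genes. *Klf4*, the factor with the fewest reads with vehicle, was the only one of the 10 that was higher past the threshold.

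FOXO1 and FOXO3 are forkhead factors that AKT inhibits by phosphorylation, and FOXO1 maintains *Il7r* and *Klf2* in resting T cells. *Foxo1* (chromosome 3, 52268337 to 52350109) was at 265.1, 155.3 and 264.3 CPM with vehicle and 132.5, 174.3 and 205.9 CPM with AOA. Vehicle replicate 2 fell among the AOA libraries, so the groups overlapped. Its log2 fold change of -0.42 (standard error 0.24) did not pass, and without vehicle replicate 2 it was -0.59 (standard error 0.19) and did. *Foxo3* (chromosome 10, 42181845 to 42276695) was at 38.9, 38.9 and 41.4 CPM with vehicle and 29.1, 39.7 and 37.3 CPM with AOA. Only AOA replicate 1 stood below the rest, the groups overlapped, and the log2 fold change was -0.17 (standard error 0.15), not past the threshold.

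FOXP1 is a forkhead repressor that keeps naive T cells quiescent and limits *Il7r*. *Foxp1* (chromosome 6, 98925342 to 99522746) was at 351.1, 271.7 and 339.5 CPM with vehicle and 206.7, 254.4 and 242.4 CPM with AOA. The groups did not overlap, but vehicle replicate 2 and AOA replicate 2 were close. Its log2 fold change of -0.45 (standard error 0.16) was past the threshold. It no longer passed with the mouse as a block (-0.45), nor when any single library other than vehicle replicate 2 was left out, with log2 fold changes between -0.52 and -0.36 over all 6 omissions.

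BTG1, BTG2 and TOB1 belong to the family of antiproliferative proteins that bind the CCR4-NOT deadenylase, and BTG1 and BTG2 are needed for the low messenger RNA content of resting T cells. *Btg1* (chromosome 10, 96617001 to 96622813) was at 517.7, 510.0 and 515.1 CPM with vehicle and 231.9, 192.5 and 188.8 CPM with AOA. The vehicle libraries were nearly equal, with a coefficient of variation of 0.757%, and all AOA libraries lay far below them. The difference for *Btg1* was -1.33 on the log2 scale (standard error 0.14), or 2.52-fold lower with AOA. RefSeq also lists near copies of this gene, *Btg1b* and *Btg1c*, on chromosome X, and how reads were shared with them is uncertain.

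*Btg2* (chromosome 1, 134074865 to 134079155) was at 188.8, 130.8 and 211.1 CPM with vehicle and 89.1, 89.4 and 100.0 CPM with AOA. All AOA libraries were below the vehicle libraries, of which replicate 2 was the lowest, and the log2 fold change was -0.93 (standard error 0.18). *Tob1* (chromosome 11, 94209842 to 94215495) was at 30.4, 33.1 and 33.4 CPM with vehicle and 24.0, 24.8 and 23.0 CPM with AOA. The groups did not overlap, and the difference was small, at -0.43 on the log2 scale (standard error 0.13). It passed the threshold, but not without vehicle replicate 3 (-0.38), AOA replicate 2 (-0.45) or AOA replicate 3 (-0.40).

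PIK3IP1 is a transmembrane protein that binds and inhibits the catalytic subunit of PI3K and is lost from the T cell surface on activation. *Pik3ip1* (chromosome 11, 3319241 to 3342971) was at 281.4, 217.7 and 260.8 CPM with vehicle and 42.6, 39.5 and 41.8 CPM with AOA. The AOA libraries lay within a narrow range far below vehicle. The log2 fold change was -2.62 (standard error 0.15), 6.14-fold lower and at percentile 2.86 over all tested genes. The long noncoding gene *Gm11944* overlaps its span and had at most 41 reads in any library, against at least 747 for *Pik3ip1*.

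TSC22D3, also called GILZ, is a leucine zipper protein induced by glucocorticoids and by FOXO factors that restrains AP-1 and NF-κB. *Tsc22d3* (chromosome X, 140539528 to 140600522) was at 236.5, 103.8 and 212.7 CPM with vehicle and 42.4, 28.6 and 35.4 CPM with AOA. Vehicle replicate 2 was the lowest of its group but still above every AOA library. The log2 fold change was -2.38 (standard error 0.30), or 5.19-fold lower, and -2.63 (standard error 0.17) without vehicle replicate 2.

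**Figure D1:**
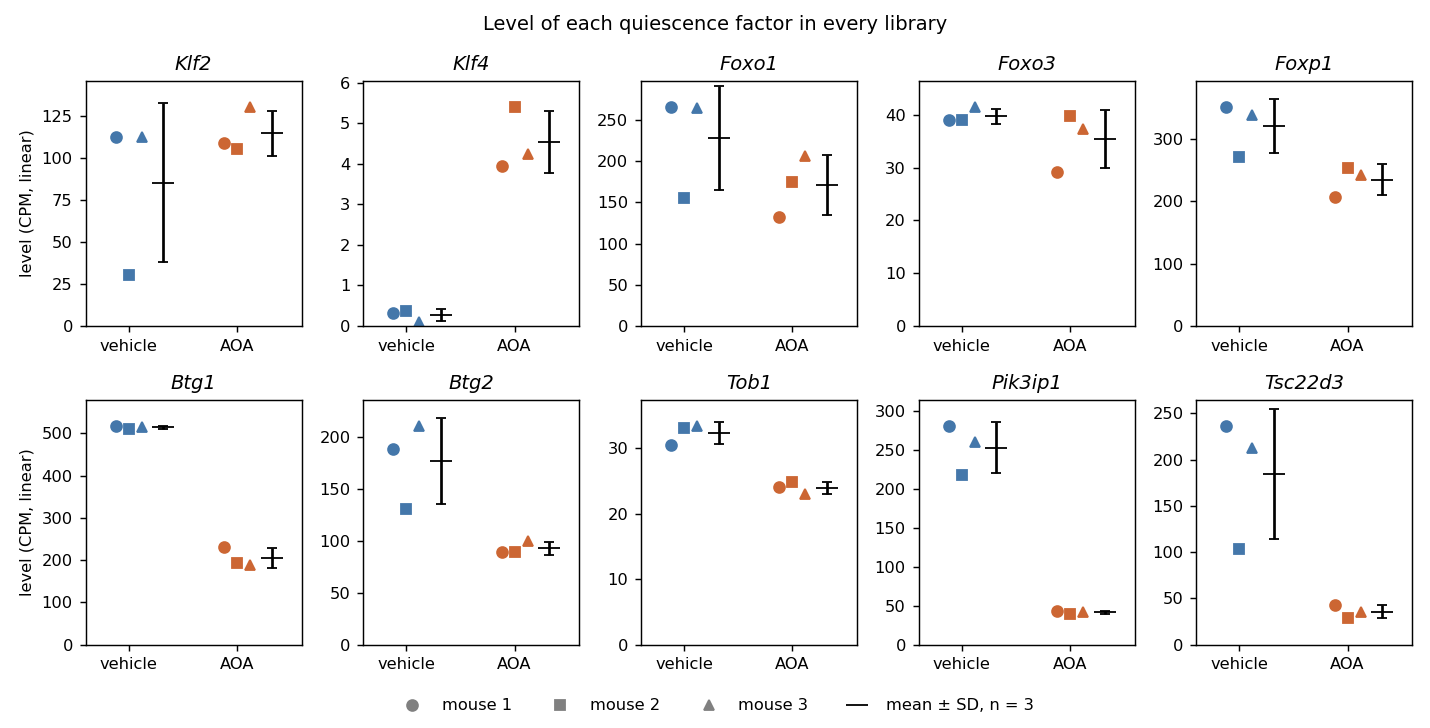
Level of each quiescence factor in CPM on a linear axis from 0, in vehicle (blue) and AOA (orange) libraries, with a symbol for each mouse and the mean ± SD of 3 libraries in black. *Pik3ip1*, *Tsc22d3*, *Btg1*, *Btg2*, *Foxp1* and *Tob1* lie below vehicle without overlap, *Klf4* lies above, and for *Klf2* vehicle replicate 2, at 30.7 CPM, is apart from libraries between 105.4 and 130.5 CPM.

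Within the mice, the log2 difference of *Pik3ip1*, AOA minus vehicle, was -2.72, -2.46 and -2.64 in mice 1, 2 and 3, and for *Btg1* it was -1.16, -1.40 and -1.45. These differences varied little between mice. For *Klf2* it was -0.05, 1.77 and 0.21, so that mouse 2 stood apart. For *Foxo1* it was -1.0, 0.17 and -0.36, spread widely between the mice. For *Foxp1* the difference in mouse 2 was -0.09, against -0.76 and -0.49 in mice 1 and 3.

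**Figure D2:**
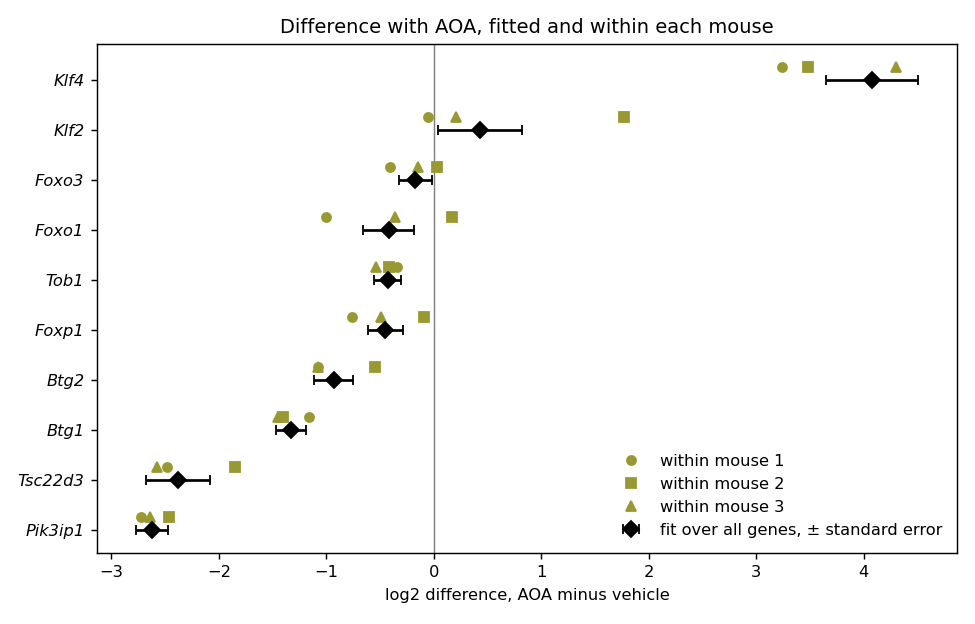
Log2 difference between AOA and vehicle (horizontal axis) for each factor, with the fit over all genes and its standard error as black diamonds and the differences in log2 CPM within each mouse as olive symbols. The factors run from *Pik3ip1* at -2.62 to *Klf4* at 4.08, and the symbols of mouse 2 lie to the right of those of the other mice for *Klf2*, *Foxo1*, *Foxo3*, *Foxp1*, *Btg2*, *Tsc22d3* and *Pik3ip1*.

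Levels of different genes were compared per length, as CPM per kilobase of deposited gene length (RPKM). With vehicle, the order of mean RPKM was *Pik3ip1* (112.9), *Btg1* (102.7), *Tsc22d3* (69.6), *Btg2* (57.4), *Klf2* (47.0), *Foxo1* (41.1), *Foxp1* (40.7), *Tob1* (14.1), *Foxo3* (13.8) and *Klf4* (0.0883). Neighbours in this order overlapped in range over the libraries, except that *Btg1* was above *Tsc22d3*, *Foxp1* above *Tob1* and *Foxo3* above *Klf4*. The median RPKM over all tested genes was 10.6 in both groups, and *Pik3ip1* stood at percentile 95.2. With vehicle all factors but *Klf4* were above that median, and with AOA all but *Klf4* and *Tob1* were.

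With AOA the order of mean RPKM was *Klf2* (63.3), *Btg1* (40.8), *Foxo1* (30.8), *Btg2* (30.1), *Foxp1* (29.8), *Pik3ip1* (18.4), *Tsc22d3* (13.4), *Foxo3* (12.2), *Tob1* (10.5) and *Klf4* (1.49). *Klf2* was apart from *Btg1* here, and *Foxo1*, *Btg2* and *Foxp1* overlapped, as did *Tsc22d3* with *Foxo3* and *Foxo3* with *Tob1*. *Pik3ip1* went from the top of the order to the sixth place, at percentile 64.1. *Klf4* was last in both groups, at percentile 0.595 with vehicle and 16.6 with AOA.

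**Figure D3:**
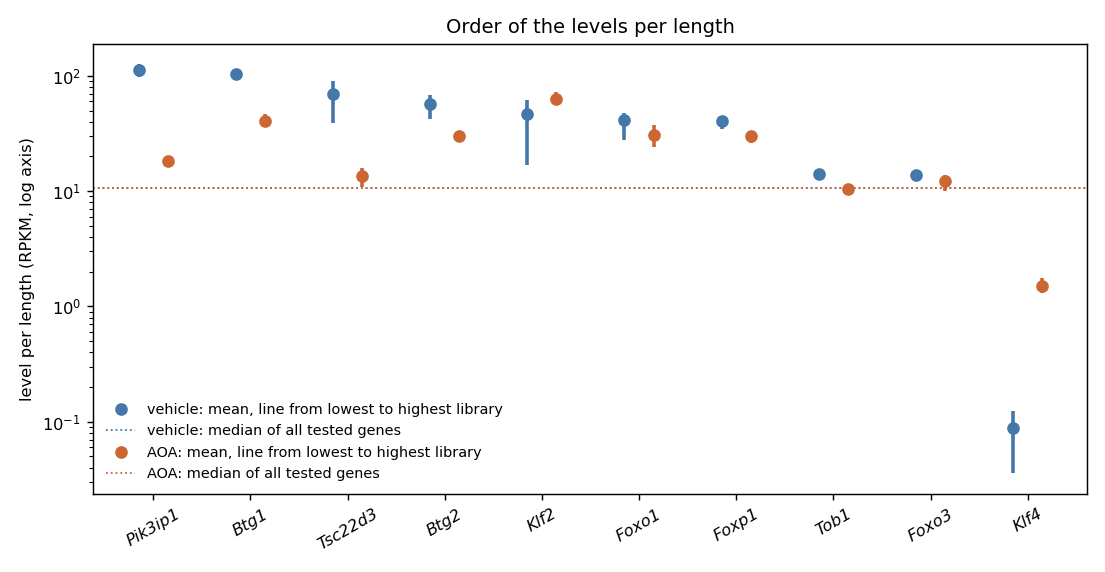
Mean RPKM of each factor on a log axis with vehicle (blue) and AOA (orange), with lines from the lowest to the highest library of 3 and dotted lines at the median of all tested genes, 10.6 in both groups. *Pik3ip1* and *Btg1* lead with vehicle at 112.9 and 102.7, and *Klf2* leads with AOA at 63.3.

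Vehicle replicate 2 differed from the other vehicle libraries in part of the program. Its level was 3.67-fold below the mean of vehicle replicates 1 and 3 for *Klf2*, 2.16-fold for *Tsc22d3*, 1.70-fold for *Foxo1* and 1.53-fold for *Btg2*. The ratio to that mean was close to 1 for *Foxo3* (0.97), *Tob1* (1.04) and *Btg1* (0.988). On the log2 scale the *Klf2* difference, -1.87, lay at percentile 0.774 over all tested genes. Vehicle replicate 2 was the lowest vehicle library for 7 of the 10 factors and for 17 of the 25 genes listed as FOXO targets or KLF2-dependent, against 41.3% of all tested genes.

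The genes low in vehicle replicate 2 included a homing receptor and the naive T cell factor *Tcf7*. *Ccr7*, a lymph node homing receptor, was at 113.2 CPM there against a mean of 367.2 CPM in vehicle replicates 1 and 3, and *Tcf7* was at 524.6 against 1613 CPM. *Rbl2*, a relative of the retinoblastoma gene, went the other way, at 293.7 against 168.7 CPM. Between the groups *Rbl2* did not pass (-0.53, adjusted p = 0.0647), but it did with the mouse as a block (-0.48, adjusted p = 0.0418), with DESeq2 (-0.52, adjusted p = 0.0443) and without vehicle replicate 3 (-0.65, adjusted p = 0.0497). *Ccr7* (-0.29, adjusted p = 0.526) and *Tcf7* (-0.55, adjusted p = 0.232) did not pass between the groups in edgeR either. Without vehicle replicate 2 both passed, with -0.64 and -0.89. The deviation of vehicle replicate 2 is a difference of 1 library, named after its values were seen. The same library had the highest summed NK cell markers among the vehicle libraries, 134.5 CPM against 65.2 and 30.3 CPM, whose part in the difference was not tested.

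**Figure D4:**
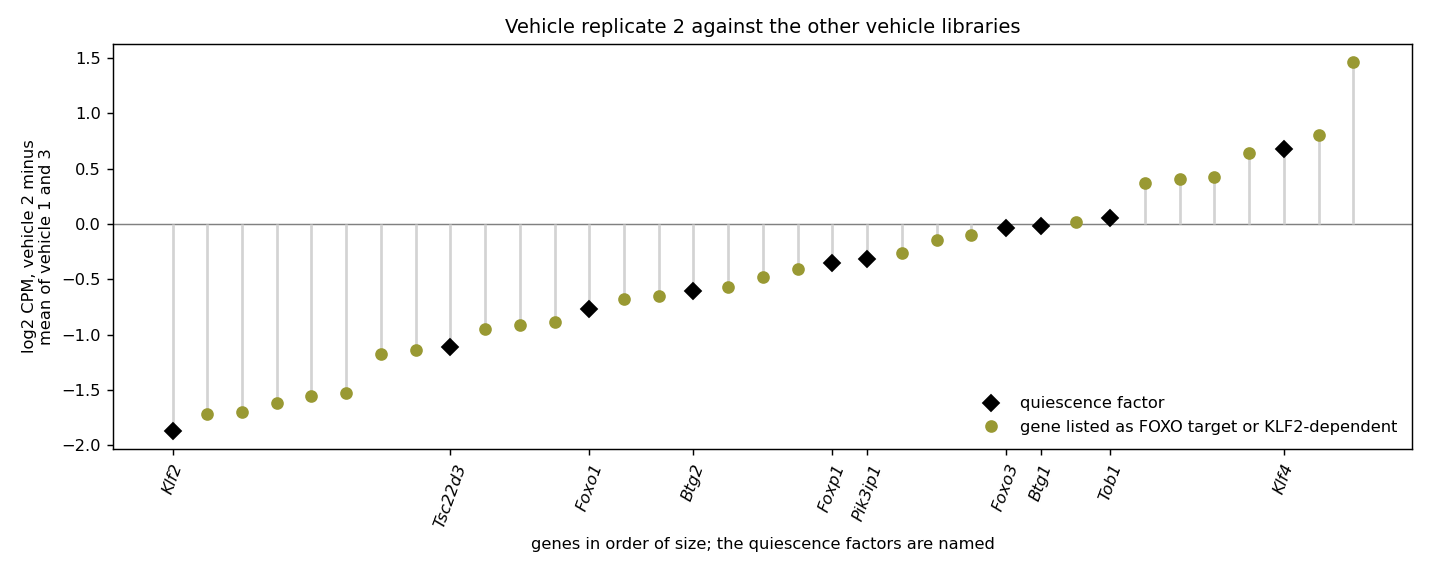
Log2 CPM in vehicle replicate 2 minus the mean of vehicle replicates 1 and 3 (vertical axis) for the 10 factors (black diamonds) and 25 genes listed as FOXO targets or KLF2-dependent (olive circles), in order of size, with the factors named. *Klf2* is at the low end at -1.87, and *Klf4* at 0.68 is the highest of the factors.

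The other genes of the same families were called in part, and the calls depended on single libraries. Of 10 tested KLF genes, *Klf6* rose and *Klf7*, *Klf11* and *Klf13* fell, with a median log2 fold change of -0.14. *Klf6* averaged 242.0 ± 42.6 CPM in the vehicle group and 358.7 ± 63.4 CPM in the AOA group (SD over 3 libraries, as in all such pairs that follow), with a log2 fold change of 0.57 (adjusted p = 0.0277). *Klf11* was at 16.0 ± 7.48 and 7.45 ± 0.755 CPM (-1.11, adjusted p = 0.0235, not called by limma at -0.96, adjusted p = 0.0596), and *Klf13* at 396.6 ± 56.4 and 262.0 ± 42.2 CPM (-0.60, adjusted p = 0.0173). *Klf7* had a log2 fold change of -0.66 (adjusted p = 0.0207). None of these 4 calls held in every omission of 1 library. Without vehicle replicate 1 or vehicle replicate 3, 0 KLF genes were called in either direction, and 2 higher and 5 lower without vehicle replicate 2. Where a call was lost, the log2 fold change was 0.44 to 0.57 for *Klf6* and -0.66 for *Klf7*. It was -1.18 to -0.85 for *Klf11* and -0.53 and -0.49 for *Klf13*. *Klf3* was at 59.0, 15 and 72.8 CPM with vehicle and between 36.5 and 49.1 CPM with AOA, with a low vehicle replicate 2 as for *Klf2* and a log2 fold change of -0.15 that did not pass. Without that library it was -0.55 and passed (adjusted p = 0.0209).

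*Foxo4*, *Foxp3* and *Foxp4* had log2 fold changes of -0.32, 0.36 and -0.45 and did not pass (adjusted p = 0.070, 0.127 and 0.099), although all 3 passed without vehicle replicate 2, with -0.35, 0.55 and -0.59. *Tob2*, the only other BTG or TOB gene measured, was at 71.2 ± 10.9 CPM with vehicle and 66.1 ± 18.2 CPM with AOA and did not pass. *Tsc22d4* fell (-0.45, adjusted p = 0.0285), a call that was lost without any single library other than vehicle replicate 2 (-0.50 to -0.33). *Tsc22d1* (0.58) and *Tsc22d2* (-0.15) did not pass, except *Tsc22d1* with the mouse as a block (0.54) and without vehicle replicate 2 (0.80).

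Genes known as FOXO targets were lower with AOA more often than higher: of 22 tested, 12 fell and 2 rose, with a median log2 fold change of -0.68. The list does not separate targets that FOXO factors raise from those that they repress. *Il7r*, the receptor for the survival cytokine IL-7, was at 513.5, 613.7 and 441.9 CPM with vehicle and 20.0, 30.5 and 20.6 CPM with AOA. It fell by 4.46 on the log2 scale (adjusted p = 1.12e-05), and the groups were far apart. *Bcl6*, a transcriptional repressor, fell by 4.49 (adjusted p = 7.6e-05), and *Txnip*, which limits glucose uptake, fell by 2.17 (adjusted p = 0.000584). The cyclin gene *Ccnd2* rose by 0.74 (adjusted p = 0.0158), not past the threshold without vehicle replicate 1 (0.58) or AOA replicate 3 (0.69), and the superoxide dismutase gene *Sod2* rose by 0.53 (adjusted p = 0.00581). *Foxo1* and *Foxo3* themselves did not pass the threshold in the same fit.

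Of 5 tested genes known to depend on KLF2 in T cells, 3 fell, among them *S1pr1* and *Cxcr3*, and *Itgb7* rose, with a median of -0.72. *S1pr1*, the receptor for exit from lymphoid organs, was at 443.4 ± 174.6 CPM with vehicle and 216.7 ± 24.7 CPM with AOA (-1.03, adjusted p = 0.0126), and its call was lost without AOA replicate 1 (-1.05). *Cxcr3*, a chemokine receptor gene that is raised in T cells without KLF2, fell by 0.72 (adjusted p = 0.00598). *Itgb7*, an integrin chain, rose by 0.68 (adjusted p = 0.0118), but not past the threshold without AOA replicate 3 (0.58). *S1pr1* is also on the list of FOXO targets.

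The CCR4-NOT complex that BTG and TOB proteins bind was listed together with the PAN deadenylase and poly(A)-binding proteins. Of these 16 genes, 5 rose and 5 fell, with a median log2 fold change of 0.10, and without vehicle replicate 3 these counts were 2 and 2. *Cnot9*, a CCR4-NOT subunit, went from 54.9 ± 6.15 to 159.0 ± 4.08 CPM (1.53, adjusted p = 3.65e-05). The catalytic subunits moved in both directions. *Cnot6* and *Cnot7* rose by 0.76 (adjusted p = 0.00122) and 0.53 (adjusted p = 0.0159), the latter not past the threshold without vehicle replicate 1 (0.51) or 3 (0.53). *Cnot6l*, the paralog of *Cnot6*, fell by 0.53 (adjusted p = 0.017), a call lost without vehicle replicate 1 (-0.45), vehicle replicate 3 (-0.41) or AOA replicate 3 (-0.52). *Pan2* and *Pan3*, the subunits of the other cytoplasmic deadenylase, fell by 1.41 (adjusted p = 9.93e-05) and fell by 0.75 (adjusted p = 0.000905). *Tnks1bp1*, a partner of CCR4-NOT, fell by 0.67 (adjusted p = 0.0214), not past the threshold without vehicle replicate 3 (-0.62). The lower levels of *Btg1* and *Btg2* thus stood beside deadenylase genes that moved in both directions. The calls that held when any single library was left out were *Cnot9* and *Cnot6*, higher, and *Pan2* and *Pan3*, lower. No lower call of a CCR4-NOT subunit or of *Tnks1bp1* held in all of these omissions.

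The 23 tested genes of PI3K, AKT and their phosphatases belong to the pathway that PIK3IP1 restrains and that FOXO proteins lie downstream of. They moved in both directions, with 4 higher, 7 lower and a median of -0.11. *Sgk3*, a kinase related to AKT that also phosphorylates FOXO proteins, rose from 27.9 ± 4.93 to 124.1 ± 22.1 CPM (2.15, adjusted p = 3.44e-05). The lipid phosphatase gene *Inpp4b* rose by 0.75 (adjusted p = 0.00321) and *Akt1* by 0.63 (adjusted p = 0.00398). *Pik3r2*, a regulatory PI3K subunit, fell by 1.22 (adjusted p = 0.00154). *Phlpp1*, a phosphatase of AKT, also fell by 1.22 (adjusted p = 0.0231), a call lost without vehicle replicate 1 (-0.95), vehicle replicate 3 (-0.99), AOA replicate 1 (-1.01) or AOA replicate 3 (-1.25).

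Of 16 genes that act on the stability or location of FOXO or KLF2 proteins, 9 rose and 0 fell, with a median of 0.50. *Skp2*, a ubiquitin ligase subunit that targets FOXO1, went from 2.94 ± 0.751 to 17.1 ± 2.02 CPM (2.53, adjusted p = 5.21e-05). *Xpo1*, the nuclear export receptor, went from 119.4 ± 5.71 to 383.2 ± 9.72 CPM (1.68, adjusted p = 2.2e-05). *Ywhaq*, a 14-3-3 protein that can bind phosphorylated FOXO, rose by 1.41 (adjusted p = 0.000232). In the edgeR test 0 were lower at an unadjusted p under 0.05 too, and 0 were called lower by DESeq2 or limma. These are messenger RNA levels, and no FOXO or KLF2 protein was measured here.

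Of 10 tested genes that respond to glucocorticoids other than *Tsc22d3*, 5 fell and 1 rose, with a median of -0.53. The clock gene *Per1* fell by 1.41 (adjusted p = 0.00064). The metallothionein genes *Mt1* and *Mt2* fell by 3.24 (adjusted p = 0.00299) and fell by 4.62 (adjusted p = 0.000914) on the log2 scale, and vehicle replicate 2 weighed on both. *Mt1* was at 60.8 CPM in that library, against 11.1 and 13.8 CPM in vehicle replicates 1 and 3, and without it the log2 fold changes were -2.01 and -3.35. *Errfi1*, an inhibitor of EGF receptor signalling, rose by 0.92 (adjusted p = 0.0211), not past the threshold without vehicle replicate 1 (0.75), vehicle replicate 3 (0.82) or AOA replicate 2 (0.67). The receptor gene *Nr3c1* was at 188.8 ± 15.3 CPM with vehicle and 180.3 ± 12.9 CPM with AOA and did not pass.

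Other genes that restrain resting T cells were mostly lower as well. Of 15 tested, 11 fell and 0 rose, with a median of -0.59. At an unadjusted p under 0.05 in edgeR 0 were higher, and DESeq2 and limma called 0 higher. The ubiquitin ligase gene *Cblb* fell from 583.8 ± 46.6 to 144.3 ± 23.7 CPM (-2.02, adjusted p = 3.21e-05), the repressor gene *Bach2* fell by 1.66 (adjusted p = 0.000637), and *Zfp36*, whose product destabilises cytokine messenger RNAs, fell by 1.64 (adjusted p = 0.000846). Without vehicle replicate 1 the count of lower genes was 7. Of 14 genes of cell cycle entry and progression, 14 rose, with a median of 1.43: cyclin E2 (*Ccne2*) by 3.05, topoisomerase II alpha (*Top2a*) by 2.78 and *E2f1* by 2.70 (adjusted p = 3.15e-05, 1.95e-05 and 1.4e-05). The authors reported lower cell counts and less division with AOA earlier in culture, and neither was measured in these libraries. From the RNA sequencing they reported higher expression of cell cycle checkpoint genes.

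Immediate early genes, whose short-lived transcripts also rise with stimulation or handling, were lower as well, 9 of 14 tested and 0 higher, with a median of -1.59. In edgeR 2 were higher at an unadjusted p under 0.05, and DESeq2 called 2 higher and limma 0. Log2 fold changes were -2.83 for *Egr1* (adjusted p = 1.51e-05), -2.78 for *Fosl2* (adjusted p = 3.33e-05) and -2.56 for *Nr4a3* (adjusted p = 0.000164). *Btg2* is itself induced early by stimulation in many cell types. With the mouse as a block 1 gene of this list was higher, *Jund* (0.45, adjusted p = 0.0464). The lists were chosen with earlier results of these data known, and all their counts are to be read beside the 26.2% of tested genes called higher and the 26.8% called lower.

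**Figure D5:**
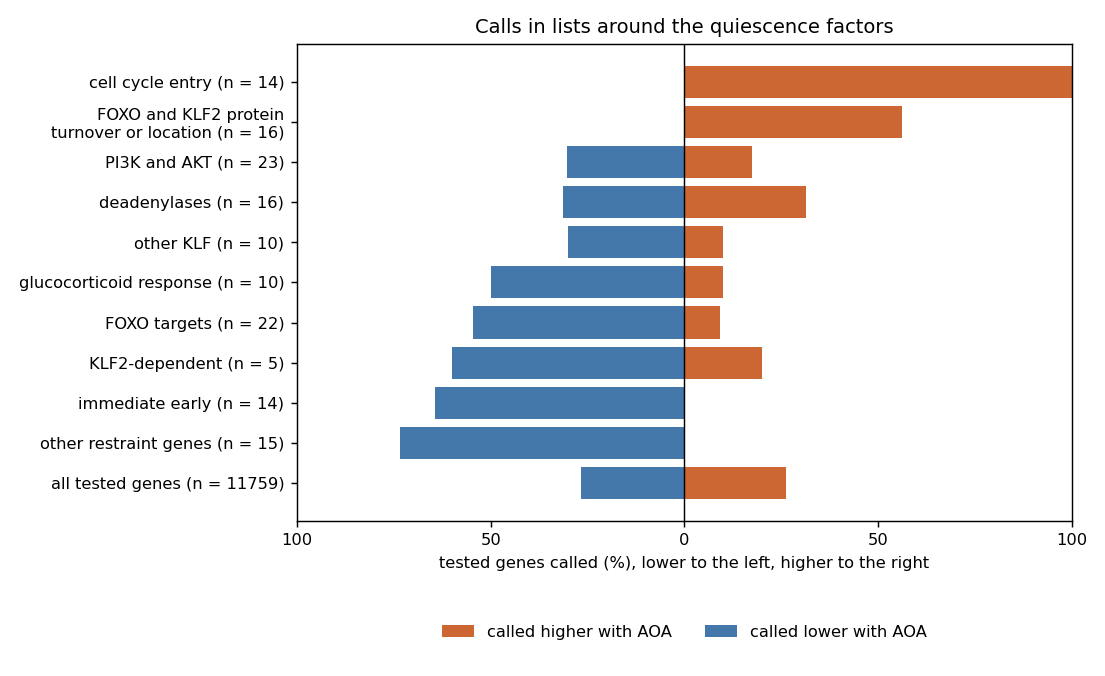
Share of tested genes called higher (orange, right) and lower (blue, left) with AOA at an adjusted p under 0.05, for lists around the quiescence factors and for all tested genes, with the number tested in parentheses. Genes of cell cycle entry and progression, labelled cell cycle entry, were all higher (14 of 14). Other restraint genes and FOXO targets were mostly lower (11 of 15 and 12 of 22), and all tested genes were balanced (26.2% and 26.8%).

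For the 4 factors with the highest mean CPM, the tested genes with the most similar profile over the 6 libraries were found by the root mean square difference of centred log2 CPM. *Btg1* was closest to *Gimap8* (0.072), *Il18r1* (0.075) and *Glb1l* (0.077). *Foxp1* was closest to *Cwc25* (0.030), *Itpkb* (0.037) and *Brd1* (0.042). *Foxo1* was closest to *Prkd2* (0.074), *Gm16982* (0.082) and *Slc43a2* (0.082). *Pik3ip1* was closest to *Gm19345* and *Rasgrp4* (both 0.114) and *Grina* (0.151). *Gm19345* had a mean of only 0.654 CPM with vehicle and was at 0 in the AOA libraries, so the prior count of 2 bears on its likeness. The 10 factors themselves were left out of this search.

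The transcripts also differed in their 3′ untranslated regions, measured from GENCODE vM21 models of build GRCm38 for 9 of the 10 genes. *Foxo1*, *Btg1* and *Foxo3* had regions of 6240, 4166 and 4490 bases, against a median of 973 bases over 10978 tested genes. The pentamer ATTTA, the core of AU-rich elements, occurred 13 times in *Foxo1*, 11 times in *Btg1*, 6 times in *Foxo3* and 5 times in *Btg2*, with medians of 3 over the 9 factors and 1 over tested genes. Per kilobase the medians were 1.36 and 1.2. *Pik3ip1*, with 1 copy, and *Tsc22d3*, with none, had the largest deficits with AOA. The Pumilio motif TGTANATA was present in 4 of the 9 factors (*Klf2*, *Foxo1*, *Foxo3* and *Btg1*) and in 23.9% of tested genes. Its presence was not scaled for length, and *Foxo1*, *Foxo3* and *Btg1* had the longest regions of the 9.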

How the data were processed

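CD8+ T cell libraries of 3 vehicle and 3 AOA cultures were grouped by the labels. The authors aligned reads with STAR, counted uniquely mapped reads per gene on build mm10 and deposited raw counts and a gene length. The submitters' processing notes also name bcl2fastq, featureCounts and DESeq2. Not given in the sources used here are the annotation, the strand setting and any filter on genes.

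The analysis used edgeR 4.0.16 in R 4.3.3. After filterByExpr (minimum count 10) and TMM scaling, groups were compared in a robust quasi-likelihood fit without a block, and p-values were adjusted by Benjamini-Hochberg over 11759 genes, with a call at 0.05. TMM library sizes underlie CPM, log2 CPM has a prior count of 2, and RPKM divides CPM by the deposited length. The steps were tested on simulated data. Alternatives were DESeq2 1.42.0, limma 3.58.1 (voom), other scalings and filters, each library left out, a replicate block for the mouse and a minimum log2 fold change of 1. RPKM without vehicle replicate 2 was added after the data were seen.

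Mouse numbers in the labels are shared by both groups, and deviations from the group means correlated within mice 1, 2 and 3 with r of 0.0868, 0.189 and 0.194 across genes, which are not independent replicates. Beside a result, the blocked value is given where it changed the call of a named gene, and the other changes follow in the closing section.

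The members and lists were chosen with earlier results of these data known. The members went through the fit over all genes, but their calls are given as a description and not as tests, no set test was run, and pathway lists are described by counts and medians. Named were all members, from each list up to 3 called genes per direction with the largest log2 fold change (10 CPM or more in the group where they are higher), and tested paralogs. Genes outside this rule were named after their values were seen. A few list and marker genes are counted but not reported by name. Of the 7 erythroid markers chosen, none was analysed here. Coordinates are RefSeq spans on GRCm38 (mm10).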

Additional observations from a re-analysis of the deposited data

How the results depend on the processing

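The count of quiescence factors that were higher was 1 under every alternative except the filter of at least 10 CPM in 3 libraries, which leaves *Klf4* out and gave 0. The count of lower factors was 6, and with each library left out in turn it was between 4 and 7, with 4 without vehicle replicate 3, AOA replicate 2 or AOA replicate 3, where *Foxp1* and *Tob1* were lost. It was 3 with a log2 fold change of at least 1 (*Pik3ip1*, *Tsc22d3* and *Btg1*). With the mouse as a replicate block it was 5, since *Foxp1* was lost. Over all genes, 1418 were higher and 1663 lower with a log2 fold change of at least 1.

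The replicate block also added a called higher gene among TSC22 genes (1), glucocorticoid response genes (2) and immediate early genes (1), which were *Tsc22d1*, *Fkbp5* (0.61, adjusted p = 0.0103) and *Jund*. It raised the count of lower FOXO targets from 12 to 13, with *Rbl2*, and that of lower restraint genes from 11 to 12, with *Runx1* (-0.57, adjusted p = 0.0236) and *Slfn2* (-0.47, adjusted p = 0.0458) gained and *Dgkz* (-0.44, adjusted p = 0.0644) lost. Higher deadenylases went from 5 to 4, without *Cnot8* (0.36, adjusted p = 0.0615). The 10 CPM filter called 1 lower FOXO or FOXP gene. DESeq2 called 2 higher glucocorticoid response genes and 2 higher immediate early genes, and no filter on low counts called 1 of the latter.

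With a log2 fold change of at least 1, counts of higher genes were 0 for the KLF family, FOXO targets, KLF2-dependent and glucocorticoid response genes, 1 for deadenylases, 1 for PI3K and AKT genes and 4 for FOXO and KLF2 turnover genes. Counts of lower genes were 1 for the KLF family, 0 for TSC22 genes, 1 for deadenylases, 4 for PI3K and AKT genes and 5 for other restraint genes.

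With each library left out in turn, counts of higher genes ranged from 0 to 2 for the KLF family, 0 to 1 for FOXO and FOXP genes, 0 to 1 for TSC22 genes, 2 to 6 for deadenylases, 1 to 3 for FOXO targets, 0 to 2 for KLF2-dependent genes, 0 to 2 for glucocorticoid response genes and 0 to 1 for immediate early genes. Counts of lower genes ranged from 0 to 5 for the KLF family, 0 to 2 for FOXO and FOXP genes, 0 to 1 for TSC22 genes, 2 to 5 for deadenylases and 7 to 14 for other restraint genes. The cause of these shifts was not tested. With 3 libraries a group, factors with log2 fold changes near 0.4 lie at the limit of what these data can separate, and *Klf4*, with 2 to 6 reads in a vehicle library, has an imprecise fold.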
